A study of Solanum lycopersicum with 12 samples.

Results

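The ripening MADS-box genes described here are TAGL1, FUL1, FUL2 and MADS1, together with a gene on chromosome 5 that has no Solyc identifier and is called the chromosome 5 gene below. They were chosen by 6 feature IDs, of which 5 have a row among the 35882 rows of the deposited tables. All 5 were among the 19664 genes with enough reads to be tested, and the ID given for TAG1 is not analysed here. Transcripts were measured by RNA sequencing of tomato (Solanum lycopersicum) fruit pericarp, the fleshy wall of the fruit. The groups were a mutant called cr at breaker, the wild type (A, here WT) at breaker, cr at mature green and WT at mature green, with 3 libraries each. Mature green is the full-size green fruit, labelled 35, and breaker is the stage of the first colour change, labelled 38. The labels name neither the mutated gene nor the cultivar, and nothing in them tells if a group's libraries are of different plants. The spread behind each adjusted p-value is that among these libraries and may be technical.

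MADS-box genes encode transcription factors that bind DNA as dimers and join into larger complexes, in which SEPALLATA-type members often link the others. In flowers they set organ identity, and in tomato several of them act again when the fruit ripens. TAGL1, a relative of the Arabidopsis SHATTERPROOF genes, is needed for a thick pericarp and for full ripening. FUL1 and FUL2 are related to Arabidopsis FRUITFULL, and lowering both together impairs tomato ripening. MADS1 belongs to the SEPALLATA group, and lowering it has been reported to hasten tomato ripening.

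TAGL1 (Solyc07g055920) lies on the plus strand at chr7:63758975-63768403 in the SL4.0 build used by the files. FUL1 (Solyc06g069430) lies on the minus strand at chr6:40805905-40814099. FUL2 (Solyc03g114830) and MADS1 (Solyc03g114840) are neighbours on the minus strand of chromosome 3, at chr3:59120397-59126936 and chr3:59136281-59142609, with 9344 bases between them. The chromosome 5 gene lies on the minus strand at chr5:5302601-5308497. Its deposited annotation gives a best protein match to the MADS-box protein CMB1 together with the SRF-type DNA-binding domain and the K-box that mark plant MADS-box factors. It lies 2247 bases from MACROCALYX, another MADS-box gene on the same strand. None of the 5 overlapped another feature of the tables.

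Total counts per library ran from 17703054 to 19426192. Replicate 1 of cr at breaker had the lowest levels in its group of several ripening genes. PG2A, the fruit polygalacturonase that degrades pectin, had a scaled read count (CPM) of 233 in it, against 696 and 1074 CPM in the other cr breaker libraries, and the ethylene-responsive gene E8 had 3437 CPM, against 7427 and 6744 CPM. Summed over 4 markers of ripening pericarp, PG2A, EXP1, E8 and PSY1, the level was 7484 to 15238 CPM in cr and 29968 to 31627 CPM in WT at breaker, and 835 to 1256 CPM in cr and 1801 to 3447 CPM in WT at mature green. The tissue label was also set against markers of other tissues. The 107 rows with seed storage or oil body descriptions, 57 of them at 0 in every library, summed to 418 to 439 CPM in cr and 381 to 527 CPM in WT at breaker, and to 297 to 402 CPM in cr and 429 to 817 CPM in WT at mature green. The most abundant were Solyc08g074480 and Solyc08g079250, described as lipid-transfer proteins of the 2S albumin superfamily, a family not limited to seeds, at 186 and 111 CPM on average over all libraries. Next came the oleosin Solyc06g060840, a protein of seed oil bodies, at 55.8 CPM, and the seed storage protein Solyc03g005580 stood at 11.2 CPM. The petal and stamen genes TAP3, TM6 and GLO2 summed to 28.8 to 43.8 CPM in cr and 19.1 to 25.0 CPM in WT at breaker, and to 46.4 to 51.9 CPM in cr and 48.4 to 65.1 CPM in WT at mature green. TM6 carried nearly all of it, and GLO2 had 1 read in 1 library and 0 in the others. MBP3, a gene of ovules and seed coats, stood at 6.70 to 12.6 CPM in cr and 3.51 to 7.51 CPM in WT at breaker, and at 5.73 to 12.2 CPM in cr and 6.83 to 9.33 CPM in WT at mature green. The part of these markers in the results below was not tested. In such bulk tissue fewer cells of a type and less RNA per cell cannot be told apart.

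Levels were compared between genes in FPKM, the authors' deposited values scaled for gene length and library. In cr at breaker the chromosome 5 gene at 236 ± 69.6 FPKM and FUL1 at 217 ± 35.1 FPKM (SD, n = 3) were first, and TAGL1 at 111 ± 1.93 and MADS1 at 108 ± 18 FPKM followed, with FUL2 at 69.5 ± 1.46 FPKM last. In WT at breaker the chromosome 5 gene and FUL1 stood at about the same level, at 515 ± 1.56 FPKM for the chromosome 5 gene and 513 ± 12.9 FPKM for FUL1, above TAGL1 at 157 ± 6.52, MADS1 at 76.6 ± 2.70 and FUL2 at 64.9 ± 4.67 FPKM. Within each breaker group the libraries of the chromosome 5 gene and FUL1 overlapped, and in cr those of TAGL1 and MADS1 overlapped too, so neither pair was separated beyond its spread.

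At mature green the order was different, with the chromosome 5 gene last in both genotypes, at 11.9 ± 4.16 FPKM in cr and 38.9 ± 15.8 FPKM in WT. In cr the 4 other genes formed a chain of overlapping neighbours, TAGL1 at 95.2 ± 3.6, FUL1 at 89.5 ± 8.13, MADS1 at 74.8 ± 17.7 and FUL2 at 66.3 ± 6.16 FPKM. In WT FUL1 at 124 ± 22.9 and TAGL1 at 103 ± 7.15 FPKM overlapped and lay above FUL2 at 70.4 ± 3.08 and MADS1 at 69.2 ± 11.6 FPKM, which overlapped as well.

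**Figure D1:**
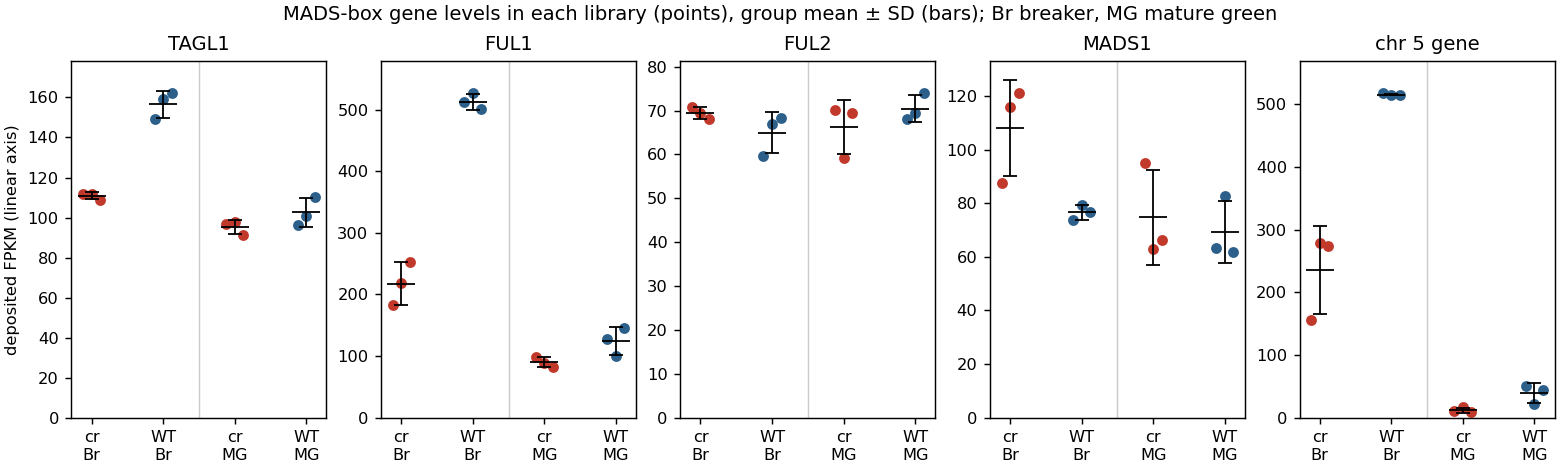
Deposited FPKM of each gene (vertical axes, linear, from 0) in cr and WT at breaker (Br) and mature green (MG). Points are libraries, and the bars give the group mean ± SD (n = 3). FUL1 and the chromosome 5 gene reach 513 and 515 FPKM in WT at breaker, against 217 and 236 FPKM in cr, while FUL2 stays between 59.2 and 73.9 FPKM in all 12 libraries.

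Together the 5 genes summed to 741 ± 117 FPKM in cr and 1326 ± 16.8 FPKM in WT at breaker. At mature green they summed to 338 ± 28.9 FPKM in cr and 405 ± 31.0 FPKM in WT. FUL1 and the chromosome 5 gene held 29.3 and 31.3% of the sum in cr at breaker, and 38.6 and 38.9% in WT. The 5 genes were also set against all rows with a MADS-box description or family entry. That sum left out the chromosome 2 gene described below, at 53.2 FPKM in cr and 27.9 FPKM in WT at breaker. The 5 genes made up 43.2 ± 4.28% of the summed FPKM in cr and 58.5 ± 0.351% in WT at breaker. At mature green the share was 28.3 ± 1.86% in cr and 30.8 ± 1.93% in WT. The libraries of the 2 genotypes did not overlap in this share at breaker, at 38.4 to 46.6% in cr and 58.1 to 58.8% in WT, and they did at mature green, at 26.8 to 30.4% in cr and 28.6 to 32.3% in WT.

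Each gene was fitted with all others, and a gene was called where edgeR's quasi-likelihood test gave an adjusted p under 0.05. Fold changes of the 5 genes are given as a description, with no p, because the genes were chosen with earlier results of these data known. At breaker, cr against WT, 4 of the 5 were called, 3 lower and 1 higher, where 25.0% of all genes tested were called. At mature green 1 of 5 was called, lower, where the share over all genes was 4.34%, with 2.62% lower. For breaker against mature green, 4 of 5 were called higher in cr, against 28.7% of all genes called and 15.2% called higher. In WT 3 of 5 were called higher, against 48.3% of all genes called and 23.4% called higher. The difference between the stage changes of cr and WT, the interaction, was called for 2 of 5, both lower, against 13.1% of all genes and 4.62% lower. The median log2 fold change of the 5 genes was -0.49 at breaker and -0.11 at mature green between genotypes, 0.54 and 0.61 between stages in cr and in WT, and 0.20 in the interaction. Over all genes tested it lay between -0.01 and 0.03. These comparisons share libraries, and nothing is read from the counts about the 5 genes as a group.

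**Figure D2:**
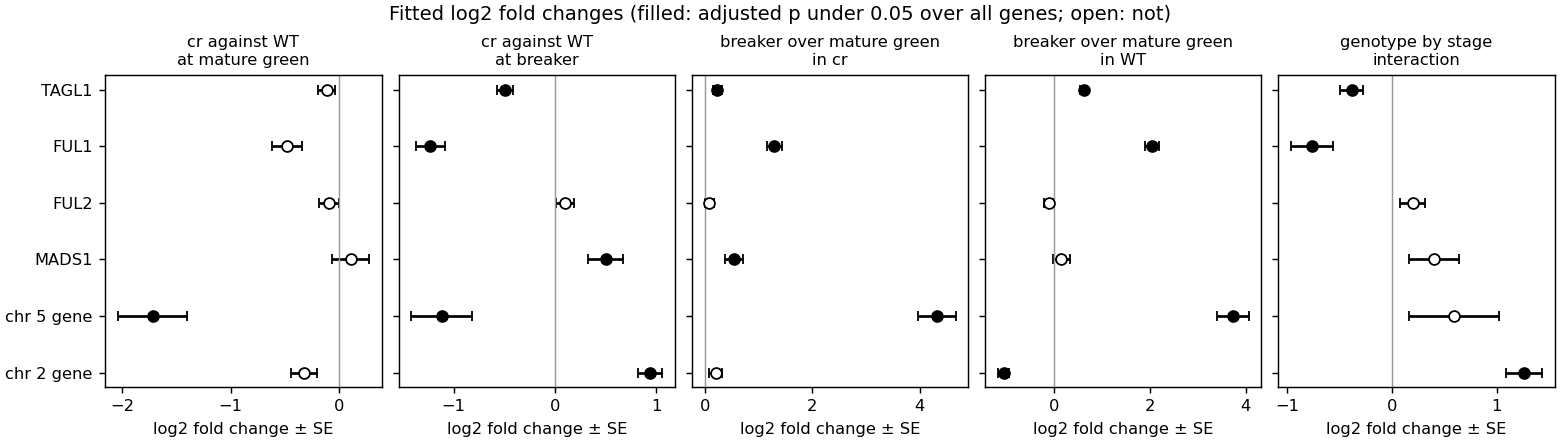
Log2 fold changes (horizontal axes) with standard errors for the 5 genes and the chromosome 2 gene (chr 2 gene) in the 5 comparisons. The interaction is the stage change in cr minus that in WT, and filled points passed an adjusted p under 0.05 over all genes. FUL1 and the chromosome 5 gene lie at -1.23 and -1.12 in cr against WT at breaker, and MADS1 at 0.50.

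Among the members that rose at breaker, the chromosome 5 gene had the widest range. It had 212, 378 and 369 CPM in the 3 cr libraries and 696, 687 and 702 CPM in the 3 WT libraries at breaker. At mature green it had 14.3, 22.2 and 11.4 CPM in cr and 68.7, 28.3 and 60.3 CPM in WT, the lowest of these being 234 reads. Every breaker library lay above every mature green library, and within each stage all cr libraries lay below all WT libraries.

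The log2 fold change of the chromosome 5 gene in cr against WT was -1.12 ± 0.30 (SE) at breaker and -1.72 ± 0.32 at mature green, which puts cr at 46% and 30.4% of WT. Over the stages its log2 fold change was 4.32 ± 0.35 in cr and 3.73 ± 0.33 in WT. The interaction, 0.59 ± 0.43, was not called. Without replicate 1 of cr at breaker the breaker difference was -0.90 and no longer called. The mature green difference was no longer called without WT replicate 3 (-1.60), cr replicate 1 (-1.64) or cr replicate 3 (-1.52) of that stage, with the direction kept.

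FUL1 was called lower in cr at breaker and higher at breaker in both genotypes. Its levels at breaker were 215, 256 and 296 CPM in cr and 599, 611 and 592 CPM in WT. At mature green they were 114, 104 and 95.3 CPM in cr and 149, 117 and 170.4 CPM in WT. The genotypes overlapped at neither stage, though at mature green the highest cr library and the lowest WT library differed by only a few CPM.

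In cr against WT the log2 fold change of FUL1 was -1.23 ± 0.14 (SE) at breaker, 42.5% of WT, and -0.48 ± 0.14 at mature green, where it was not called. Between stages it was 1.29 ± 0.14 in cr, 2.44-fold, and 2.04 ± 0.15 in WT, 4.13-fold. The stage change of FUL1 was smaller in cr than in WT, with an interaction of -0.76 ± 0.20. That call was lost without any one of WT mature green replicate 2 (-0.62), WT breaker replicate 1 (-0.76), WT breaker replicate 2 (-0.75), cr mature green replicate 1 (-0.69) and cr mature green replicate 2 (-0.76). The mature green difference passed without WT mature green replicate 2 (-0.61) and without cr breaker replicate 1 (-0.47).

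FUL2, the close relative of FUL1, showed no call in any of the 5 comparisons. It had 101, 98.6 and 96.4 CPM in cr and 84.1, 93.8 and 97.5 CPM in WT at breaker, and 99.1, 83.4 and 97.8 CPM in cr and 96.0, 98.3 and 104 CPM in WT at mature green. All 4 groups overlapped. Its log2 fold changes were 0.10 ± 0.09 at breaker and -0.09 ± 0.09 at mature green for cr against WT, 0.08 ± 0.09 and -0.12 ± 0.09 for breaker against mature green in cr and in WT, and 0.20 ± 0.12 in the interaction. With no scaling factors beyond the library totals, the stage change in WT was -0.31, and with upper quartile factors it was -0.22. Both were called lower, while the median of all genes moved to -0.19 and -0.10 under these scalings. With no factors the stage change in cr turned to -0.02.

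The ratio of FUL1 to FUL2, taken within each library and so free of library scaling, was 3.13 ± 0.575 in cr and 7.92 ± 0.633 in WT at breaker (FPKM over FPKM, SD, n = 3). At mature green it was 1.36 ± 0.172 in cr and 1.76 ± 0.282 in WT. The breaker libraries ran from 2.56 to 3.71 in cr and from 7.33 to 8.59 in WT, without overlap, and the mature green libraries overlapped, at 1.17 to 1.51 in cr and 1.44 to 1.97 in WT. The summed level of both genes was 287 ± 33.4 FPKM in cr and 578 ± 13.4 FPKM in WT at breaker. The sources used here do not state how reads matching both genes were assigned.

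**Figure D3:**
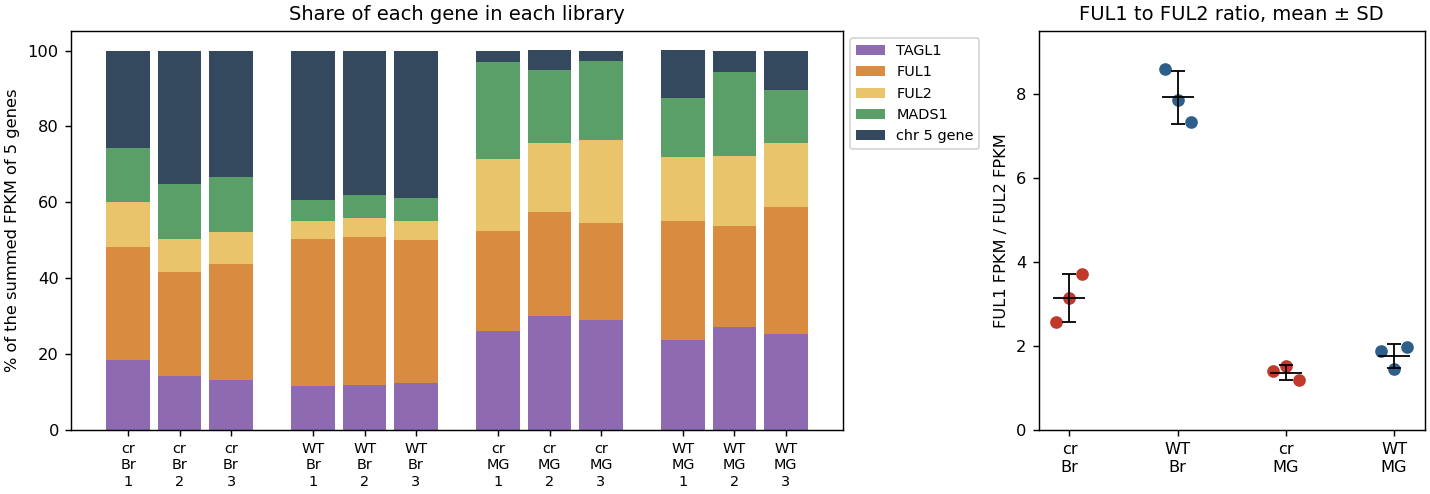
Left, the percentage of the summed FPKM of the 5 genes held by each gene (vertical axis) in each of the 12 libraries, with replicate numbers under breaker (Br) and mature green (MG). Right, the ratio of FUL1 to FUL2 FPKM in each library, with the group mean ± SD (n = 3). The share of the chromosome 5 gene was 31.3% in cr and 38.9% in WT at breaker, and 3.53% in cr and 9.47% in WT at mature green.

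TAGL1 was called lower in cr at breaker. It had 137, 137 and 132 CPM in cr and 181, 191 and 198 CPM in WT at breaker, and 117, 118 and 110.2 CPM in cr and 117, 123 and 134 CPM in WT at mature green. The genotypes were separate at breaker and overlapped at mature green, and in each genotype the breaker libraries lay above the mature green ones.

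For TAGL1 the log2 fold change of cr against WT was -0.49 ± 0.08 (SE) at breaker, 71.1% of WT, and -0.11 ± 0.08 at mature green, not called. Between stages it was 0.23 ± 0.08 in cr and 0.61 ± 0.08 in WT, and the interaction was -0.38 ± 0.11. The call in WT and that at breaker held under all 18 alternatives. The call of the stage change in cr was lost under 13 of 18 alternatives, with values from 0.13 to 0.25, among them the omission of any 1 of the 6 cr libraries, of WT mature green replicate 2 and of WT breaker replicates 1 and 2. The interaction was lost under 14 of 17, with values from -0.43 to -0.28, among them the omission of any 1 of the 6 cr libraries, of WT mature green replicates 1 and 2 and of WT breaker replicates 2 and 3.

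MADS1 was the member called higher in cr at breaker. It had 111, 147 and 152 CPM in cr and 92.7, 98.7 and 97.6 CPM in WT at breaker. At mature green it had 119.7, 79.0 and 83.1 CPM in cr and 79.3, 104 and 77.9 CPM in WT. The genotypes were separate at breaker, but replicate 1 of cr at mature green lay above replicate 1 of cr at breaker, so the stages overlapped in cr.

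The log2 fold change of MADS1 in cr against WT was 0.50 ± 0.17 (SE) at breaker and 0.11 ± 0.17 at mature green. Between stages it was 0.54 ± 0.17 in cr, called higher, and 0.15 ± 0.17 in WT, not called. With no factors beyond the library totals the WT value turned to -0.06. The difference between the genotypes' stage changes, an interaction of 0.40 ± 0.24, was not called. The breaker call was lost without any 1 WT breaker library (0.48, 0.52 and 0.51 without replicates 1, 2 and 3) and without cr breaker replicate 2 (0.45) or 3 (0.44). The stage call in cr was lost without cr mature green replicate 2 (0.43) or 3 (0.46) and without cr breaker replicate 2 (0.49) or 3 (0.46). Replicate 1 of cr at breaker was the lowest of its group for MADS1, FUL1 and the chromosome 5 gene. Without it the breaker differences were 0.63 for MADS1, -1.12 for FUL1 and -0.50 for TAGL1, all still called.

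FUL2 and MADS1 are neighbours, and their ratio within a library was 1.56 ± 0.285 in cr and 1.18 ± 0.0551 in WT at breaker, and 1.12 ± 0.211 in cr and 0.986 ± 0.183 in WT at mature green (MADS1 over FUL2, FPKM). The ratio of the chromosome 5 gene to MADS1 was 2.15 ± 0.325 in cr and 6.73 ± 0.256 in WT at breaker, and 0.167 ± 0.0826 in cr and 0.594 ± 0.298 in WT at mature green. The breaker libraries of these ratios were separate between genotypes for the chromosome 5 gene to MADS1, at 1.78 to 2.40 in cr and 6.49 to 7.0 in WT.

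A gene on chromosome 2 without a Solyc identifier, called the chromosome 2 gene here, was added after its values were seen and lies outside the ID rule. It is on the minus strand at chr2:39106325-39112456, and its deposited description gives the floral homeotic protein AGAMOUS, also called TAG1, as its best protein match. AGAMOUS-type genes specify stamens and carpels in the flower. It had 109.8, 75.3 and 84.2 CPM in cr and 45.9, 46.5 and 48.2 CPM in WT at breaker, and 75.5, 82.3 and 77.1 CPM in cr and 94.5, 93.3 and 106 CPM in WT at mature green. Its levels in WT were thus lower at breaker than at mature green in every library, and the cr stages overlapped. The log2 fold change of cr against WT was 0.94 ± 0.12 (SE) at breaker, and -0.32 ± 0.12 at mature green, where it was not called. Between stages it was 0.20 ± 0.12 in cr, not called, and -1.06 ± 0.12 in WT, called lower, and the interaction was 1.26 ± 0.17, called higher.

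The pattern of each member over the 12 libraries was compared with that of 12851 genes of at least 3 mean log2 CPM. Likeness was the root mean square difference of log2 CPM after each gene was centred on its own mean, and it is given as a description. Around its own mean the chromosome 5 gene varied by 2.2 on this scale, FUL1 by 0.971, MADS1 by 0.317, TAGL1 by 0.281 and FUL2 by 0.0932. Between members FUL2 and MADS1 were the closest, at 0.307, and FUL2 and the chromosome 5 gene the farthest, at 2.21. The 0.307 was about as large as the variation of MADS1 around its own mean, and TAGL1 and FUL2 lay at 0.313.

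The genes most like the chromosome 5 gene were AAT1 (Solyc08g005770), an alcohol acyltransferase of aroma ester formation, at 0.262, and EXP1 (Solyc06g051800), the ripening expansin that loosens cell walls, at 0.298. The third, Solyc10g085230, lay at 0.362, against a median of 2.18 over all genes. It is described as a ripening-related mRNA and, by its protein match, as UDP-glycosyltransferase 76E1. Nearest to FUL1 were Solyc12g088420, described as a peroxisomal membrane protein, at 0.145, Solyc08g008330, a hypothetical protein, at 0.177, and Solyc02g069800, described as an alpha/beta hydrolase, at 0.188, with a median of 0.957.

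For TAGL1 the nearest were Solyc07g041160 at 0.0695, Solyc11g017230 at 0.0711 and Solyc10g006980 at 0.0782, with a median of 0.324. For MADS1 they were Solyc08g081180 at 0.142, Solyc02g067160 at 0.156 and Solyc09g098330 at 0.157, with a median of 0.385. FUL2 was nearest to a feature matched to ATG8-interacting protein 1 at 0.0595, to Solyc06g054550 at 0.0665 and Solyc02g081380 at 0.0716, with a median of 0.247. The small distances of TAGL1 and FUL2 stand beside their small variation, and nothing is said of shared control.

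Among other MADS-box genes, 263 further rows had such a description or family entry, without the chromosome 2 gene. Of these, 189 stood at 0 in every library, and 33 were tested. In cr against WT, 4 of 33 were called higher and 1 lower at breaker, and 1 was called at mature green, lower. For breaker against mature green 4 rose and 3 fell in cr, and 6 rose and 5 fell in WT. In the interaction 5 were called, all higher. The shares called were 15.2% at breaker, 3.03% at mature green, 21.2% between stages in cr, 33.3% in WT and 15.2% in the interaction, beside the shares over all genes given above. Of these calls 3 of 5, 1 of 1, 5 of 7, 3 of 11 and 3 of 5 were lost when at least 1 library was left out.

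MACROCALYX, the neighbour of the chromosome 5 gene and a gene of sepal development, moved the other way from it at breaker. It had 90.6, 73.3 and 59.6 CPM in cr and 46.1, 36.4 and 50.7 CPM in WT at breaker, and 75.6, 70.7 and 66.2 CPM in cr and 77.5, 84.8 and 103 CPM in WT at mature green. The genotypes did not overlap at either stage, with cr above WT at breaker and below it at mature green. Its log2 fold change in cr against WT was 0.75 ± 0.16 at breaker (SE; Benjamini-Hochberg adjusted p = 0.00437, edgeR's quasi-likelihood test). At mature green it was -0.32 ± 0.16 and not called (adjusted p = 0.291). It fell by 0.99 over the stages in WT (adjusted p = 0.000216), was 0.07 in cr (adjusted p = 0.768), and the interaction was 1.07 ± 0.22 (adjusted p = 0.00829).

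TM6, a class B gene of petals and stamens, was also higher in cr at breaker. It averaged 35.0 ± 7.13 CPM in cr and 20.1 ± 2.60 CPM in WT at breaker (SD, n = 3 libraries each). The log2 fold change was 0.80 ± 0.16 at breaker by edgeR (adjusted p = 0.00309) and -1.40 ± 0.16 between stages in WT (adjusted p = 1.4e-05). In cr it was -0.45 ± 0.16 between stages (adjusted p = 0.0470, edgeR), a call lost without any 1 of 7 libraries, and the interaction was 0.96 ± 0.22 (adjusted p = 0.0142, edgeR). The SEPALLATA-type gene TM29 averaged 289 ± 7.87 FPKM in cr and 283 ± 17.3 FPKM in WT at breaker, and TM5, of the same type, 154 ± 2.55 FPKM in cr and 144 ± 14.3 FPKM in WT. Neither was called between genotypes at breaker (TM29 0.04, adjusted p = 0.765, and TM5 0.10, adjusted p = 0.402, by edgeR) or at mature green (TM29 -0.07, adjusted p = 0.718, and TM5 -0.20, adjusted p = 0.193). At mature green the TM5 libraries did not overlap, at 150.1 to 157 CPM in cr and 173 to 183 CPM in WT. With no factors beyond the library totals TM5 was called higher in cr at breaker, where the median of all genes was 0.13. TM29 rose between stages in cr by a log2 fold change of 0.27 (adjusted p = 0.0225, edgeR), a call lost without any 1 of 5 libraries.

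Of the less abundant rows, Solyc03g019710, described as LETDR8, averaged 8.62 ± 2.88 CPM in cr and 7.05 ± 0.613 CPM in WT at breaker, and 2.18 ± 0.879 CPM in cr and 5.38 ± 0.879 CPM in WT at mature green. It rose over the stages in cr by a log2 fold change of 1.98 (adjusted p = 0.000388, edgeR) and was 0.39 in WT (adjusted p = 0.272). Solyc02g005110, described both as a SOC1-type MADS-box protein and, by its protein match, as a UDP-glycosyltransferase, is of uncertain family and had a log2 fold change of -1.30 between stages in WT (adjusted p = 0.000562, edgeR). Solyc12g087820, described as AGAMOUS, was 0.83 higher at breaker in WT (adjusted p = 0.000546, edgeR) and 0.53 lower in cr than in WT at breaker (log2 fold change -0.53, adjusted p = 0.0208), a call lost without any 1 of 3 libraries.

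**Figure D4:**
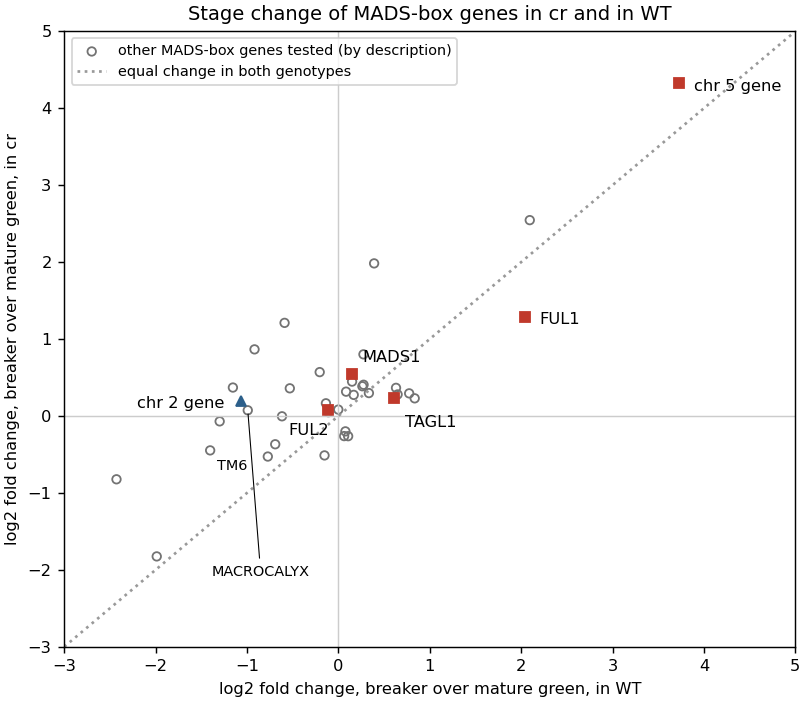
Log2 fold change of breaker over mature green in cr (vertical) and in WT (horizontal) for the 5 genes (red squares), the chromosome 2 gene (blue triangle) and 33 other MADS-box genes tested (open circles). The dotted line marks equal change. FUL1 and TAGL1 lie below it, at 1.29 against 2.04 and 0.23 against 0.61, and the chromosome 2 gene, TM6 and MACROCALYX lie above it.

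Outside the MADS-box family, 10 ripening regulators were listed by ID, all tested. In cr against WT 1 was higher at breaker, GLK2, a factor of chloroplast development, and 1 was lower at mature green, the DNA demethylase gene DML2. GLK2 stood at 2.30 on the log2 scale (adjusted p = 0.00179, edgeR). Its level at breaker was low, at 2.36 ± 0.615 CPM in cr and 0.475 ± 0.172 CPM in WT (SD, n = 3). The WT value came from 24 reads over 3 libraries. DML2 stood at -0.94 (adjusted p = 0.0386, edgeR), a call lost without any 1 of 7 libraries, where its adjusted p reached 0.156. For breaker against mature green 7 rose and 1 fell in cr, and 6 rose and 1 fell in WT, and GLK2 was the one that fell. Over all genes tested 25.0% were called between genotypes at breaker and 4.34% at mature green. Between stages 28.7% of all genes were called in cr and 48.3% in WT. The NAC factor NOR averaged 614 ± 153 CPM in cr and 547 ± 32.0 CPM in WT at breaker (SD, n = 3 libraries each), with a log2 fold change of 0.17 ± 0.29 (SE, adjusted p = 0.714, edgeR). CNR, an SBP-box factor, averaged 394 ± 127 CPM in cr and 439 ± 60.3 CPM in WT at breaker, and its log2 fold change was -0.16 ± 0.22 (adjusted p = 0.650, edgeR). The regulators AP2a, at -0.65 ± 0.30 (adjusted p = 0.132, edgeR), and ETR3, at -0.69 ± 0.35 (adjusted p = 0.178, edgeR), were not called at breaker either. Their breaker libraries did not overlap between genotypes, with cr below WT. The median of the 10 regulators at breaker was 0.01. NOR, CNR, AP2a and ETR3 were thus not called between genotypes where FUL1, TAGL1 and the chromosome 5 gene were called lower. The fitted drops of AP2a and ETR3 were larger than that of TAGL1 (-0.49 ± 0.08), and their standard errors were wider. The differences between these genes were not tested.

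Of 16 ripening target genes of ethylene synthesis, softening, pigments and aroma, all tested, 11 were called in cr against WT at breaker and 8 at mature green, all of them lower. All 16 rose over the stages in both genotypes, and in the interaction 2 were higher and 1 lower. Of all genes tested 25.0% were called at breaker, and 56.0% of these calls were higher. At mature green 4.34% of all genes were called, with 2.62% lower. Between stages 15.2% of all genes were called higher in cr and 23.4% in WT, and 13.1% were called in the interaction. The median log2 fold change of the 16 was -1.26 at breaker and -1.77 at mature green for cr against WT. It was 4.07 between stages in cr and 3.67 in WT. The median of all genes tested lay between -0.01 and 0.03. When at least 1 library was left out, 4 of the 11 calls at breaker (ACS4, E8, PSY1 and AAT1) and 3 of the 8 at mature green (ACS2, PG2A and LOXC) were lost, and all 3 in the interaction.

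EXP1 and AAT1 were picked above because their levels over the same 12 libraries were the most like those of the chromosome 5 gene, so that choice fixed their direction, and their values are given as a description with no p. EXP1 averaged 985 ± 149 CPM in cr and 1941 ± 231 CPM in WT at breaker, a log2 fold change of -0.98 ± 0.23 (SE). At mature green it averaged 47.7 ± 13.1 CPM in cr and 206 ± 62.1 CPM in WT, a log2 fold change of -2.11 ± 0.24. For AAT1 the log2 fold change of cr against WT was -0.83 ± 0.26 at breaker and -1.83 ± 0.27 at mature green. AAT1 had 337077 counts over all libraries, and a gene that overlaps it on the other strand had 5764.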

How the data were processed

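RNA was extracted with Trizol from frozen pericarp, per the labels' protocols. Per the submitters' processing notes, the tools were edgeR 3.22.5 and DESeq2 1.20.0, featureCounts 1.5.0-p3, HISAT2 2.0.5 and fastp 0.23.1, with no roles given. The authors deposited raw read counts per gene and, in another table, FPKM values. Each deposited FPKM equals the count over the deposited gene length and 1 divisor per library, which was 0.885 to 1.08 of the library's total count. The sources used here state neither the strand setting nor how reads with several matches were treated.

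Counts were filtered with filterByExpr (minimum count 10, total 15), which left 19664 genes with 99.949% of the counts, and were scaled with TMM factors. Tests used edgeR 4.0.16 (glmQLFit, glmQLFTest) in R 4.3.3, with 1 coefficient per group over 12 libraries and Benjamini-Hochberg adjustment within each of 5 comparisons. The common biological coefficient of variation was 0.155. Calls needed an adjusted p under 0.05. Standard errors are the log2 fold change over the root of the F value. The code was tested on simulated data.

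CPM values are TMM-scaled. For likeness, a prior count of 2 was used. The members and gene lists were chosen with earlier results of these data known. Named genes were the members, the 3 nearest genes of each, other MADS-box genes picked by ID or among the 3 strongest calls in each direction above a mean log2 CPM of 1, and the listed ripening genes. Of listed IDs, those of TAG1, RIN, GLO1 and TAGL11 are not analysed here. That concerns the IDs only, and whether the chromosome 5 gene or the chromosome 2 gene is one of these genes was not tested. Alternatives were upper quartile factors, no factors, no filter, DESeq2 1.42.0, a replicate block, the 2 groups alone and leaving out each library.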

Additional observations from a re-analysis of the deposited data

Results flagged for a closer look

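The genotype by stage interaction is the log2 stage change in cr minus that in WT. It passed for 2 of the 5 genes, both lower, and for several genes set beside them. Over all genes tested it passed for 13.1%, with 4.62% lower. It was -0.38 for TAGL1 and -0.76 for FUL1, whose stage change was smaller in cr than in WT. The call was lost under 14 of 17 alternatives for TAGL1 and under 5 of 17 for FUL1. The interaction was 1.26 for the chromosome 2 gene, 0.96 for TM6 and 1.07 for MACROCALYX, each lower at breaker than at mature green in WT. Of the less abundant rows it was 1.59 for Solyc03g019710 and 1.23 for Solyc02g005110, calls lost without any 1 of 5 and any 1 of 7 libraries, with adjusted p-values up to 0.0546 and 0.0655 by edgeR. Among the ripening genes it was 2.77 for GLK2, 1.13 for EXP1, 3.07 for the mannanase gene MAN4a and -2.12 for the cellulase gene CEL2. The calls of EXP1, MAN4a and CEL2 were lost without any 1 of 8, 9 and 7 libraries in this order. Those of TM6, MACROCALYX and GLK2 held without each library, though GLK2 stood at only 0.475 CPM in WT at breaker.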

How the results depend on the processing

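Of 445 log2 fold changes of the 5 genes under alternatives, 48 lost a call, and 5 gained one. In 0 of them a called value changed sign. The number of the 5 genes called in the interaction was 1 with upper quartile factors, with no factors and with no filter, and the number called over the stages in cr was 2 with no factors. DESeq2 called 1452 genes and 2 of the 5 in cr against WT at mature green. Of the regulators, 2 were called in the interaction with upper quartile factors, no factors or DESeq2, and of the other MADS-box genes 3 at breaker with the 2 groups alone. Leaving out 1 library gave 243 to 1183 genes called at mature green, 3543 to 4979 at breaker, 3691 to 6041 over the stages in cr, 8087 to 9844 in WT and 1828 to 2657 in the interaction. Of the 5 genes it gave 0 to 2 at mature green, 3 to 4 at breaker, 2 to 4 over the stages in cr, 3 to 3 in WT and 0 to 2 in the interaction. Of the other MADS-box genes it gave, in the same order, 0 to 2, 3 to 6, 3 to 8, 8 to 12 and 2 to 5. For the regulators it gave 0 to 1, 1 to 1, 8 to 8, 7 to 8 and 1 to 2, and for the target genes 5 to 10, 7 to 13, 16 to 16, 15 to 16 and 0 to 5. The place of a gene in the order of levels moved by at most 1. In cr at breaker TAGL1 took places 3 to 4, MADS1 3 to 4, FUL1 1 to 2 and the chromosome 5 gene 1 to 2, in WT at mature green FUL2 3 to 4 and MADS1 3 to 4, and in WT at breaker FUL1 1 to 2 and the chromosome 5 gene 1 to 2. Fewer libraries leave less replication in these fits, and the cause of the other changes was not tested.

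Scaling moved the split of calls. With no factors the median log2 fold change of all genes was 0.13 at breaker, -0.10 over the stages in cr, -0.19 in WT and 0.13 in the interaction, and 74.9, 37.5, 29.6 and 78.7% of calls were higher, against 56.0, 53.1, 48.4 and 64.9% with TMM. With upper quartile factors 37.5% were higher over the stages in WT.

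Replicate numbers did not pair the libraries: over 18 pairs with the same number the correlation of deviations from the group mean was -0.152 to 0.0799, and 2 of 12 libraries were closest to their own number. With the replicate block 3 of the 5 genes were called at breaker, MADS1 (0.50) being lost, 3 over the stages in cr, TAGL1 (0.23) being lost, and 1 in the interaction, TAGL1 (-0.38) being lost. The block left 0 regulators called at mature green and 1 target gene in the interaction, and of the other named genes it ended the calls of E8 and AAT1 at breaker, DML2, ACS2 and PG2A at mature green, TM6 over the stages in cr, Solyc03g006830 in WT, and EXP1 and MAN4a in the interaction.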
